A study of Mus musculus with 6 samples.

Results

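The genes described here are 32 genes that hepatocytes, the main cells of the liver, are known for, measured in RNA from whole adrenal glands of mice. They were chosen by name from values of these same data, because albumin and other liver transcripts stood out in 1 library, the third of the Armc5 knockout group. Each gene was matched to the rows of the deposited count table that carry its symbol. Of the 32 genes, 31 were found, in 29 of the 53103 named loci, since a row of this table can merge neighbouring genes. Serpina1a, Serpina1b and Serpina1c fell in 1 merged locus with Serpina1d, Serpina1e and Gm8893, and Serpina3k fell in 1 merged locus with 7 other Serpina3 genes. The symbol Tf (transferrin) was not in the table. Its counterpart Trf shared a locus with Gm20425 and Srprb, is described separately and was not counted among the 29.

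Adrenal glands of 2 genotypes were compared, WT (wild type, 3 samples) and Armc5(-/-) (the knockout or KO, 3 samples). All 6 came from female mice aged 30 weeks on a 129 sv X CD1 background, and no treatment is named. ARMC5 is an armadillo-repeat protein that serves as a substrate adaptor of a cullin 3 ubiquitin ligase. The labels do not say which part of Armc5 was deleted, whether a sample was 1 gland or a pool, or whether the samples came from separate animals, so the p-values below measure the spread between these samples, which may be technical. Replicates are called WT 1 to WT 3 and KO 1 to KO 3, and CPM is a count divided by the library's counts of named loci and multiplied by 1000000.

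The libraries held 70547288 to 130573434 counts, of which unnamed loci took 1.39% to 2.04%. Armc5 had 2763, 3263 and 2233 counts in WT and 395, 269 and 473 in KO, so the libraries matched their labels (-2.90 on the log2 scale, SE 0.10, with an adjusted p of 0.00041 by edgeR). The tissue also matched its label in each library: 11 loci of adrenal cortex genes, led by Cyp11b1/Cyp11b2, Cyp21a1 and Star, took 4.32% to 6.32% of the counts in WT and 3.71% to 4.22% in KO, with KO 3 at 3.99%. The 10 loci of chromaffin cell genes took 0.169% to 0.278% in WT and 0.426% to 0.472% in KO, with KO 3 at 0.426%. KO 3 stood apart from the other 5 libraries in the genes described here, and the genotype comparison of these genes is given with and without it.

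Hepatocytes make most of the proteins of blood plasma, including albumin, apolipoproteins, clotting factors and protease inhibitors, and they run the urea cycle, gluconeogenesis and much of drug metabolism. Transcription of these genes depends on a small set of factors, among them HNF4 and C/EBP proteins, that act together at promoters and enhancers. Adrenocortical cells make steroids and chromaffin cells make catecholamines, and neither is known as a source of albumin or fibrinogen. In bulk tissue, more cells of a type and more RNA per cell cannot be told apart.

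Short motifs of these factors recurred in the members' promoters, and a few of the promoters are shown for that reason. RefSeq (GRCm38.p6) promoter windows of 300 bases, 250 before and 50 after the start, were at hand for 24 of the 32 genes, in 26 windows. Motifs of 3 kinds were searched on both strands. For HNF4 the letters were AAAGTCC, the core of its site, and for C/EBP proteins TTGCNNAA, while the TATA box was searched as TATAAA. The C/EBP motif was in 12 of the 26 windows (46.2%), against 10.8% of all 32851 windows of the same length. The shares were lower for the others, with the HNF4 core in 3 (11.5% against 4.21%) and the TATA box in 7 (26.9% against 13.6%). In the 26 windows, 1 pair of matches of different motifs overlapped. A match of letters is a description and shows no binding.

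Printed below, 5′ to 3′ on the gene's strand, are 150 bases that end at the start site for Alb, Ahsg and the Serpina1 genes, and for Apob end before its first annotated exon, with motif matches in capitals. Alb, Apob and Ahsg are the single-gene members with the highest counts in KO 3 that had a window. The 3 Serpina1 genes are shown because the table holds them as 1 locus.
Alb: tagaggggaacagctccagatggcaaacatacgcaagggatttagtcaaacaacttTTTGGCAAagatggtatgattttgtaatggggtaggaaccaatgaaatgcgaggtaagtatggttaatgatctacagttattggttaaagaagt
Apob: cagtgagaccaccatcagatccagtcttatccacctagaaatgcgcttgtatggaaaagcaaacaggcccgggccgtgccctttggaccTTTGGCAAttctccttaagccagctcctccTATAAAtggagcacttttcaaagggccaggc
Ahsg: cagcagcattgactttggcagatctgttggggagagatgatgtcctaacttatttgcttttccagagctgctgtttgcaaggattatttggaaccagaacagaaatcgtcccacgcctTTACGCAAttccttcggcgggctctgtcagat
Serpina1a: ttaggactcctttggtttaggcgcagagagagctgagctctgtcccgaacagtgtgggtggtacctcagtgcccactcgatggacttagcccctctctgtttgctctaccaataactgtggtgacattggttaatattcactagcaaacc
Serpina1b: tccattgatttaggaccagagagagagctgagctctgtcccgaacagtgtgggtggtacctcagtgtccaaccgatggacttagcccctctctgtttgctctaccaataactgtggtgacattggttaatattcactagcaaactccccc
Serpina1c: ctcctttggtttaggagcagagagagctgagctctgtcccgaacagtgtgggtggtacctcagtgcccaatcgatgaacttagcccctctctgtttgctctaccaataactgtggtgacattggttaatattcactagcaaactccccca

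The Alb stretch lies between genes at chr5:90460720-90460869 on the plus strand and holds a C/EBP match. The Apob stretch lies between genes at chr12:7977498-7977647 on the plus strand and holds a C/EBP match and a TATA box. The Ahsg stretch, chr16:22891865-22892014 on the plus strand, holds a C/EBP match and lies in introns of the annotated loci of Ahsg and of Gm30505, a long noncoding gene on the other strand. The Serpina1 stretches lie on the minus strand of chromosome 12, at chr12:103863620-103863769 (Serpina1a, between genes), chr12:103738190-103738339 (Serpina1b, in an intron of its own annotated locus) and chr12:103904951-103905100 (Serpina1c, between genes). These 3 stretches held no match of the motifs searched, which says only that the letters are not in them. In windows of 300 bases, Serpina1a and Serpina1b did have a C/EBP match, outside the bases printed. Aligned without gaps at the best shift of at most 20 bases, Serpina1a matched Serpina1c at 140 of 144 bases (97.2%) and Serpina1b at 126 of 145 (86.9%), while Serpina1a and Alb matched at 46 of 148 (31.1%). These values are about the promoters; which Serpina1 copy the counts came from cannot be told from a merged locus.

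The 29 member loci together had 18264, 30539 and 6556 counts in WT 1, WT 2 and WT 3, 14185 and 11460 in KO 1 and KO 2, and 671517 in KO 3. Their share of the counts of named loci was 0.0156%, 0.0238% and 0.00741% in WT, 0.0138% and 0.0166% in KO 1 and KO 2, and 0.556% in KO 3 (95% Clopper-Pearson interval 0.555% to 0.557%, which covers counting error only). The other 5 libraries differed among themselves, with WT 2 highest and WT 3 lowest, and all lay far below KO 3. Alb alone held 295610 of these counts; without it the members took 0.311% of the KO 3 library. Because the genes were picked for this, the contrast between KO 3 and the others is a description with no test.

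For each locus, KO 3 was set against the highest of the other libraries. A locus was counted as far above when its CPM in KO 3 was at least 10 times that of every other library, with a library at 0 set to a floor of 3 counts and at least 30 counts in KO 3. Of the 29 member loci, 24 were far above, 18 of them by 100-fold or more, and the median ratio was 167. Of all 19096 named loci with 30 counts in KO 3, 306 (1.60%) were far above. The same count for the other libraries gave 1 to 5 loci each, none of them a member. KO 3 held over 90% of all counts in the 6 libraries for 22 of the 29 loci, with a median of 99.04%.

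**Figure D1:**
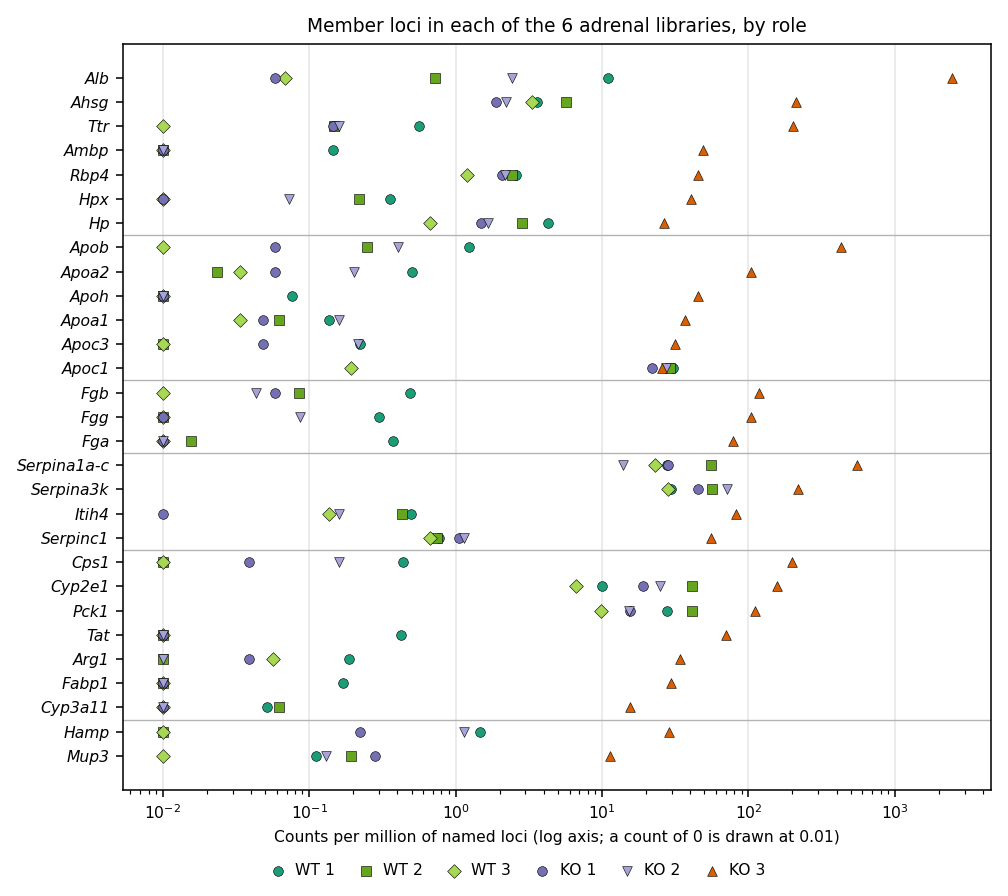
CPM of the 29 member loci in each of the 6 libraries (points; log axis, a count of 0 drawn at 0.01), grouped by role with lines between roles and ordered by counts in KO 3 within a role. KO 3 is the rightmost point in 28 of the 29 loci, the exception being Apoc1, where WT 1 is highest; Serpina1a-c and Serpina3k are merged loci.

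Albumin and the carrier proteins held the largest part of the signal. Alb encodes serum albumin, the most abundant plasma protein, and lies at chr5:90460897-90476602. It had 1289, 93 and 6 counts in WT 1, WT 2 and WT 3, 6 and 167 in KO 1 and KO 2, and 295610 in KO 3, a CPM 223 times that of WT 1. The 5 low libraries were themselves uneven, with WT 1 well above the rest. Ttr (transthyretin, which carries thyroid hormone and retinol-binding protein) had 66, 19 and 0 counts in WT, 15 and 11 in KO 1 and KO 2, and 24240 in KO 3, 357-fold above WT 1. Ambp, the precursor of alpha-1-microglobulin and bikunin, had 17 counts in WT 1, 0 in the other 4 low libraries and 5953 in KO 3. Hpx (hemopexin, which binds heme) had 42, 28 and 0 counts in WT, 0 and 5 in KO 1 and KO 2, and 4868 in KO 3.

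The remaining carriers had a measurable level in each library. Ahsg (fetuin A, an inhibitor of calcification; chr16:22891277-22899449) had 425, 725 and 295 counts in WT, 195 and 152 in KO 1 and KO 2, and 25601 in KO 3, 37.6-fold above WT 2. Here WT 2, not WT 1, was the highest of the low libraries. In CPM, the WT libraries were at 3.34 to 5.64, and KO 1 and KO 2 at 1.90 and 2.20. Rbp4, the plasma carrier of retinol, which adipocytes also make, had 303, 312 and 106 counts in WT, 213 and 151 in KO 1 and KO 2, and 5438 in KO 3, 17.45-fold above WT 1. Hp (haptoglobin, which binds free hemoglobin) had 504, 367 and 59 counts in WT, 154 and 115 in KO 1 and KO 2, and 3200 in KO 3; at 6.17-fold above WT 1 it stayed under the limit of 10. Transferrin, the iron carrier, could be read through the merged locus of Trf alone, with 8401, 15508 and 7032 counts in WT, 9532 and 7176 in KO 1 and KO 2, and 60160 in KO 3, which was 4.13-fold above WT 2.

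Among the apolipoproteins, which make up and steer lipoprotein particles, 5 of 6 loci were far above and the other one was not raised in KO 3. Apob, the structural protein of very low density lipoproteins (chr12:7977648-8016835), had 144, 32 and 0 counts in WT, 6 and 28 in KO 1 and KO 2, and 51639 in KO 3, 349-fold above WT 1. Apoh (beta-2-glycoprotein I) had 9 counts in WT 1, 0 in the other 4 low libraries and 5464 in KO 3, and its ratio of 590 was the highest of the 29 members. Apoa2, a protein of high density lipoproteins, had 59, 3 and 3 counts in WT, 6 and 14 in KO 1 and KO 2, and 12497 in KO 3. Apoa1, the main protein of those particles, had 4458 counts in KO 3 and 3 to 16 elsewhere. Apoc3, an inhibitor of lipoprotein lipase, had 3800 in KO 3 and 0 to 26 elsewhere. Apoc1 differed from the others: this small apolipoprotein, which macrophages also make, had 3588, 3773 and 17 counts in WT, 2261 and 1881 in KO 1 and KO 2, and 3108 in KO 3. Its level was alike in 5 libraries (22.0 to 30.6 CPM) and low in WT 3 (0.192 CPM).

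The fibrinogen chains, 3 genes whose products assemble into the clotting protein and lie next to each other on chromosome 3, had nearly no counts outside KO 3. Fga had 44, 2 and 0 counts in WT, 0 in KO 1 and KO 2, and 9471 in KO 3. Fgb had 57, 11 and 0 in WT, 6 and 3 in KO 1 and KO 2, and 14222 in KO 3. Fgg had 35, 0 and 0 in WT, 0 and 6 in KO 1 and KO 2, and 12636 in KO 3. Each was 209- to 351-fold above WT 1, the highest of the low libraries for all 3. Per kilobase of locus, the chains were at 25.97 (Fga), 30.9 (Fgb) and 50.0 (Fgg) CPM in KO 3.

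Of the 4 loci of protease inhibitors, 3 were far above. Itih4, a heavy chain of the inter-alpha-trypsin inhibitor family, had 58, 55 and 12 counts in WT, 0 and 11 in KO 1 and KO 2, and 9956 in KO 3, 167-fold above WT 1. Serpinc1 (antithrombin, which blocks thrombin) had 91, 96 and 59 counts in WT, 109 and 79 in KO 1 and KO 2, and 6752 in KO 3, 48.9-fold above KO 2. The 5 low libraries were close for Serpinc1, at 0.667 to 1.14 CPM. The merged Serpina1 locus, alpha-1-antitrypsin, had 3251, 7113 and 2040 counts in WT, 2917 and 961 in KO 1 and KO 2, and 67106 in KO 3, just inside the limit at 10.04-fold above WT 2. The merged Serpina3k locus had 3485, 7207 and 2485 counts in WT, 4685 and 4968 in KO 1 and KO 2, and 26289 in KO 3, 3.03-fold above KO 2. In both merged loci the low libraries held 961 to 7207 counts, and which of the merged genes gave them is not known.

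Of the intracellular proteins, 5 of 7 were far above. Cps1, carbamoyl phosphate synthetase, which starts the urea cycle in mitochondria, had 51, 0 and 0 counts in WT, 4 and 11 in KO 1 and KO 2, and 24066 in KO 3, 459-fold above WT 1. Arg1, the arginase that ends the cycle, had 22, 0 and 5 counts in WT, 4 and 0 in KO 1 and KO 2, and 4092 in KO 3. Tat (tyrosine aminotransferase) had 50 counts in WT 1, 0 in the other 4 low libraries and 8474 in KO 3. Fabp1, the fatty acid binding protein of liver, had 20 counts in WT 1, 0 in the other 4 and 3564 in KO 3. Cyp3a11, a cytochrome P450 of drug metabolism, had 1876 counts in KO 3 and 0 to 8 elsewhere; close relatives on chromosome 5 can share its reads.

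Cyp2e1 and Pck1, the other enzymes of this role, had a level of their own in every library. Cyp2e1, a P450 that oxidises ethanol and is also found in fat, had 1180, 5332 and 590 counts in WT, 1950 and 1727 in KO 1 and KO 2, and 18999 in KO 3, 3.79-fold above WT 2. Pck1, the cytosolic enzyme that commits carbon to glucose and, in fat, to glycerol, had 3241, 5330 and 876 counts in WT, 1592 and 1056 in KO 1 and KO 2, and 13312 in KO 3, 2.66-fold above WT 2. For both, WT 2 was the highest and WT 3 the lowest of the low libraries. The 14 loci of an adipocyte list moved the same way among WT, at 0.0652% of the counts in WT 2 and 0.0382% in WT 3, and took 0.0574% in KO 3; their part in these values was not tested.

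Hamp encodes hepcidin, the peptide hormone that limits iron export. It had 172, 0 and 0 counts in WT, 23 and 79 in KO 1 and KO 2, and 3458 in KO 3, 19.55-fold above WT 1. Mup3, a major urinary protein of a gene family whose near-identical copies can share reads, had 13, 25 and 0 counts in WT, 29 and 9 in KO 1 and KO 2, and 1368 in KO 3, 40.2-fold above KO 1. Both genes had low but uneven counts outside KO 3, and WT 3 was at 0 for both.

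Per kilobase of locus, which allows levels of different genes to be set side by side within KO 3, Alb led with 1045 CPM per kilobase. Apoa2 at 184, Ttr at 169 and Ahsg at 96.5 followed, and Cyp3a11 at 3.05 was the lowest. The order is a description of 1 library and carries no replicate error.

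**Figure D2:**
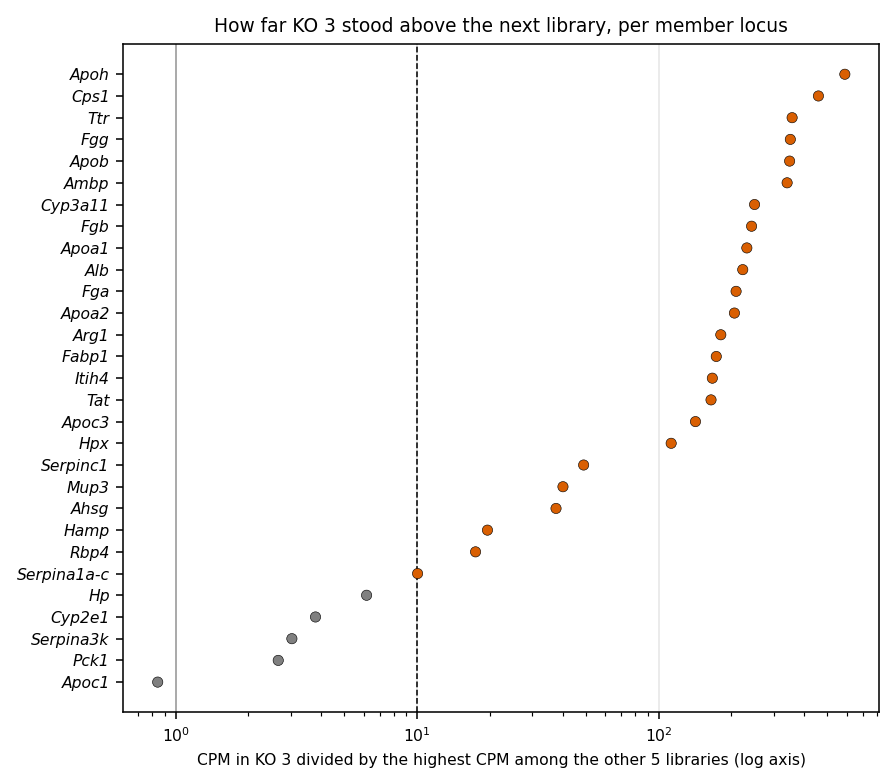
CPM in KO 3 divided by the highest CPM among the other 5 libraries for each of the 29 member loci (log axis; solid line at 1, dashed line at the limit of 10; orange points at or above it). The ratios run from 0.842 for Apoc1 to 590 for Apoh, and 5 loci lie below the limit.

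The values next to the limit show how sharp it was. Just inside were the Serpina1 locus at 10.04, Rbp4 at 17.45 and Hamp at 19.55, and just outside were Hp at 6.17, Cyp2e1 at 3.79 and the Serpina3k locus at 3.03. With library sizes scaled by TMM factors, 23 loci were inside in place of 24.

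Lists of other hepatocyte genes, which hold no member, were read with the same rule. Of their 105 loci, 64 were far above (median ratio 35.8), beside 1.60% of all loci. Among secreted proteins it was 24 of 30. Gc, the vitamin D binding protein, had 21012 counts in KO 3 and 0 to 85 elsewhere. Itih2 and the merged Rnpc3/Amy1 locus, with the highest mean CPM in that list, were not far above, at ratios of 2.82 and 1.02. Among transporters and receptors it was 12 of 15, with Slco1b2, an uptake carrier for organic anions, at 6873 counts against 0 to 19. Abcc2, an export pump of the bile canaliculus, was at 4103 against 0 to 6. The merged Abcb1b/Abcb4/Abcb1a locus and Fgfr4, with the highest mean CPM in that list, were not far above, at ratios of 0.805 and 1.003. Among metabolic enzymes it was 16 of 30. The Adh1 locus, an alcohol dehydrogenase, was below the limit and had 445227 counts in KO 3 and 297486 to 592480 elsewhere, a ratio of 0.703.

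Transcription factors known to govern hepatocyte genes were read in the same way, and 5 of 12 were far above. Hnf4a, a nuclear receptor that sets the hepatocyte programme, had 16, 0 and 0 counts in WT, 0 in KO 1 and KO 2, and 3061 in KO 3, 186-fold above WT 1. Nr1i3 (CAR, a sensor of foreign compounds) had 952 counts in KO 3 and 3 to 6 elsewhere. Prox1, a homeobox factor of several organs, had 23049 counts in KO 3 and 15769 to 20484 elsewhere, a ratio of 0.743. Nr1h4 and Nr0b2, next to Prox1 in mean CPM, were not raised in KO 3 either, at ratios of 0.847 and 0.735.

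Genes that mark the 2 ends of the liver lobule were both seen. Of 8 periportal loci, 4 were far above, among them Pigr with 4698 counts in KO 3 and 0 to 22 elsewhere, while Cyp2f2 went the other way, with 50086, 101464 and 100222 counts in WT, 28820 and 12512 in KO 1 and KO 2, and 10116 in KO 3. Of 10 pericentral loci, 3 were far above. Glul, a pericentral marker that many tissues express, was at 53268 counts in KO 3 and 23078 to 82870 elsewhere.

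Lists of other cell types held few such loci. Of 6 Kupffer cell genes (liver macrophages), Clec4f was far above, with 298 counts in KO 3 and 0 to 3 elsewhere, and Marco was at 0 in all 6 libraries; the list's share was 0.000956% in KO 3 and 0.000135% to 0.000983% elsewhere. Of 6 loci of liver sinusoidal endothelium, Clec4g was far above, with 142 counts against 0 to 6, and the list's share was 0.00508% against 0.00265% to 0.00451%. None of 7 stellate cell loci or 7 bile duct loci was far above, with 6 and 5 of them at 30 counts or more in KO 3. The stellate cell list took 0.00411% in KO 3 and 0.00153% to 0.00252% elsewhere, and the bile duct list took 0.00296% in KO 3 and 0.00141% to 0.00646% elsewhere. Apoa4 (4638 counts against 0 to 22) and Fabp2 (67 against 0 in the other 5), taken into an intestine list, were also far above; mouse liver makes Apoa4 as well. No locus of the kidney, pancreas, adipocyte, adrenal cortex, chromaffin or blood cell lists was far above. The rule needs 30 counts in KO 3, which only 2 of 12 kidney and 3 of 13 pancreas loci reached, so it says little about those lists. That level was reached by 13 of 14 adipocyte, 11 of 11 adrenal cortex, 10 of 10 chromaffin and 7 of 8 blood cell loci. The kidney markers Umod, Slc12a1 and Kap and the pancreas markers Ins1 and Ins2 were at 0 in all 6 libraries. The source of the hepatocyte transcripts in KO 3 was not tested.

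**Figure D3:**
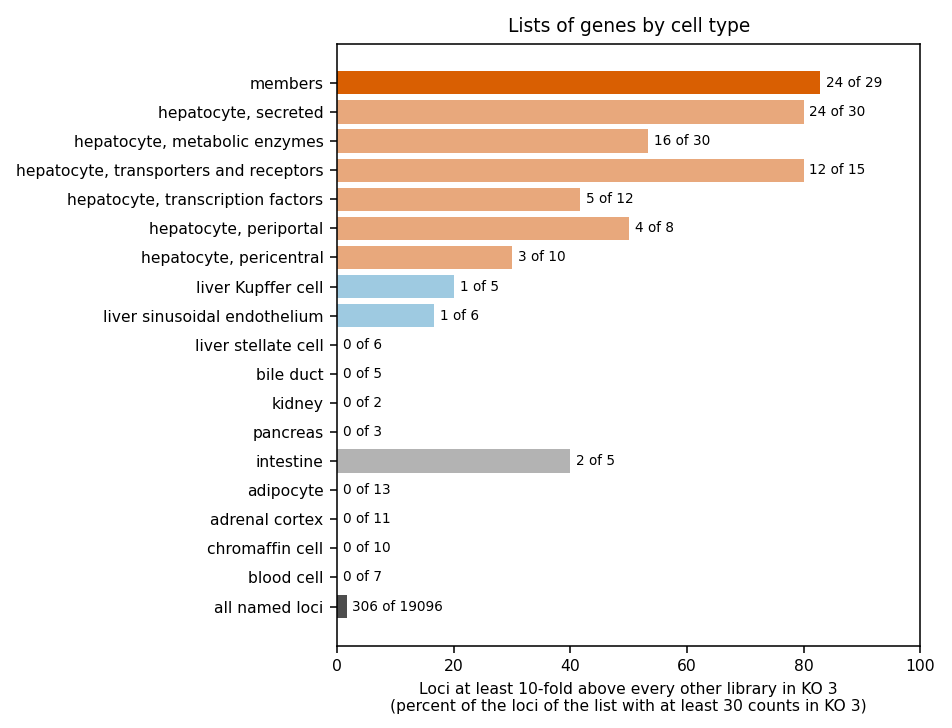
Share of the loci of each list with at least 30 counts in KO 3 that were at least 10-fold above every other library there, with counts beside the bars. The member and other hepatocyte lists stand at 24 of 29 to 3 of 10 and all named loci at 306 of 19096, while 8 lists of other cell types stand at 0; the 2 intestine loci are Apoa4 and Fabp2.

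The 306 loci that were far above took 0.893% of the KO 3 counts and 0.00447% to 0.00878% elsewhere. They were 24 members, 64 loci of the other hepatocyte lists, the 4 loci of other lists named above, and 214 loci in no list. In 61 of the 306 the other 5 libraries were all at 0, and their ratios, of at least 10.1 to at least 523, are lower bounds against the floor of 3 counts per library. Outside the lists, the 15 with the highest CPM in KO 3 were Pzp (a plasma protease inhibitor), the Cyp3a41 locus, Mat1a, Slc38a3, Mug1, Cyp2a4, the Cyp2c39 locus, Slc27a2, Cyp3a44, Cyp2d26, Elovl2, Nat8f2, Hc (complement C5), Cyp3a25 and Gjb1. Pzp had 27224 counts in KO 3 and 0 to 103 elsewhere, and Mat1a, the liver form of methionine adenosyltransferase, had 13808 against 0 to 93. Of these 15, 6 are loci of cytochrome P450 genes.

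Small amounts of the members in the other libraries were not spread evenly. WT 1 was the highest of the 5 libraries other than KO 3 for 20 of the 29 members (69.0%), against 9.77% of the 19096 loci. All 29 members had counts in WT 1, while 15 were at 0 in WT 3, 9 in WT 2, 9 in KO 1 and 7 in KO 2. Of the 19096 loci, 230 were at 0 in WT 1, 365 in WT 3, 249 in WT 2, 241 in KO 1 and 249 in KO 2. Depth differed too, from 69104760 counts of named loci in KO 2 to 128537830 in WT 2. For the 24 loci far above in KO 3, the CPM in WT 1 was a median of 0.519% of that in KO 3, from 0.169% (Apoh) to 5.73% (Rbp4). Over these 24 loci log2(CPM + 0.5) in WT 1 and in KO 3 had a Pearson r of 0.73. This is a correlation across genes, which are not independent replicates and share the 2 libraries. The added 0.5 flattens low WT 1 values, such as 0.0767 CPM for Apoh. The loci were picked by their KO 3 level, and r was not computed for another library, so nothing is read from it. The source of these low counts was not tested.

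The genotype comparison was read from a fit to all loci (edgeR quasi-likelihood, KO against WT, Benjamini-Hochberg adjusted over 21358 loci), in which 393 loci were called at an adjusted p under 0.05 (1.84%), 301 higher and 92 lower in KO. That count rose to 644 without WT 2 and fell to 20 without WT 3, 15 without KO 1, 22 without KO 2 and 37 without KO 3. The count filter kept 20 of the 29 members; the other 9 fell below it. No member was called: the smallest adjusted p among the 20 was 0.19 in edgeR's test. At an unadjusted p under 0.05 there were 8 of 20, against 22.2% of all loci. All 20 had a log2 fold change above 0, against 49.3% of all loci, with a median of 4.76 against -0.01. KO 3, whose values chose the members, sets this direction, so nothing is read from it. DESeq2 gave a p to 5 of the 20 members and called none, with 1 at an unadjusted p under 0.05. limma-voom with sample quality weights called none of the 20, also with 1 under 0.05.

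Without KO 3 the direction did not hold. Of 21690 loci then tested, 37 (0.171%) were called, and of the 20 members tested none was called in edgeR's test, with 1 at an unadjusted p under 0.05 and a smallest adjusted p of 0.14. The log2 fold change was above 0 for 8 of the 20 members, against 48.9% of all loci, and below 0 for 12, with a median of -0.91. This lean was not seen without WT 1 as well as KO 3: 15 members could be tested, 9 above 0 and 6 below, with a median of 0.31, and none was called. Fewer members were tested there, so leaving out WT 1 and losing members cannot be told apart in these medians. Fitted without KO 3 and without a filter beyond 1 count, an alternative chosen after seeing the data, all 29 members could be tested: 7 were above 0, 22 below, and none was called.

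Single members show the same change. With all libraries the log2 fold change of Alb in edgeR was 7.40, its SE 3.61 and its adjusted p 0.28, and without KO 3 it was -2.03, with an SE of 2.19 and an adjusted p of 0.66. Without WT 1 as well as KO 3 it was 1.44 (adjusted p 0.71). In CPM of Alb, KO 2 at 2.42 lay below WT 1 at 10.98 and above WT 2 at 0.724 and WT 3 at 0.0678, and KO 1 at 0.0584 was the lowest. Cps1 went from 8.52 (SE 3.39) to -0.93 (SE 2.07). For Ahsg the value was 3.90 (SE 1.83) with KO 3 and -1.26 (SE 0.26, unadjusted p = 0.0036, edgeR adjusted p = 0.14) without it, the lowest adjusted p of the members and still above the threshold. Serpinc1 went from 4.51 (SE 1.66) to 0.35 (SE 0.26), and Cyp2e1 from 1.63 (SE 1.01) to 0.00 (SE 0.73). Apoc1, the member that KO 3 did not hold in excess, was at 0.09 (SE 1.23) with KO 3 and 0.06 (SE 1.47) without it.

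**Figure D4:**
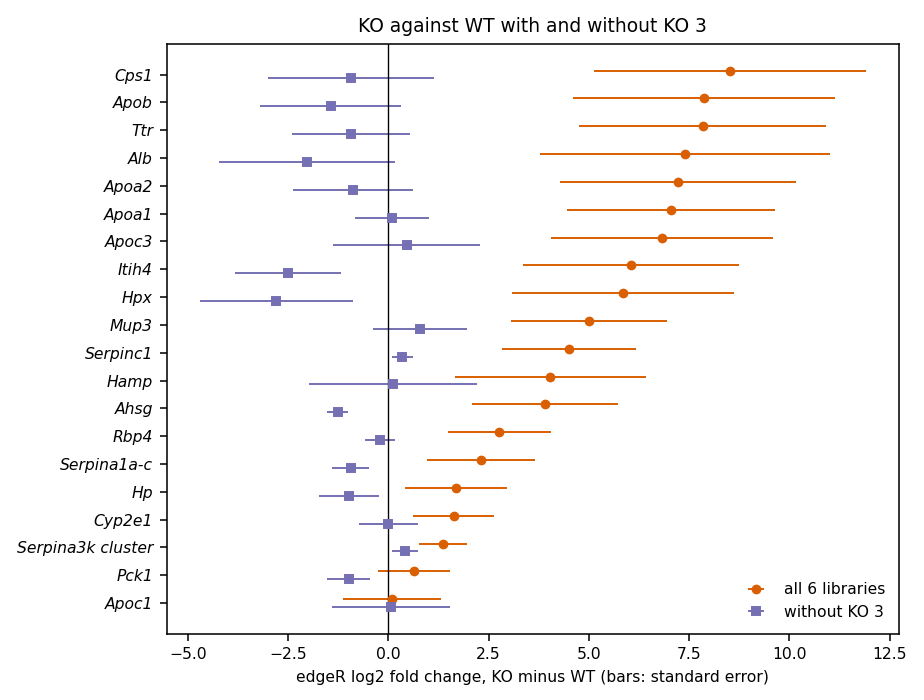
edgeR log2 fold change of KO minus WT for the 20 members that passed the filter, with all 6 libraries (circles) and without KO 3 (squares). Bars are standard errors derived from the F statistic of the test. With all libraries every point lies above 0 and none of the members passed the test; without KO 3 the points lie on both sides of 0, 8 above and 12 below.

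Leaving the member loci and the other hepatocyte loci out before scaling changed the calls of the other genes little. The TMM factor of KO 3 was 1.07 with them and 1.08 without, 410 loci were called, and 392 of the 393 calls were shared. Within the other hepatocyte lists, 67 loci were tested in the fit with all libraries and 1 was called, the locus of Ctsc, a lysosomal protease that many cells make, higher in KO by 0.61 on the log2 scale (edgeR adjusted p = 0.039). Without KO 3 the value for Ctsc was 0.59 and its adjusted p 0.12, and none of 64 loci was called. On all 6 libraries DESeq2 called 10 of the 67 loci, beside 12.3% of all 21358 loci. With sample quality weights, limma-voom called 4 of the 67, beside 7.15% of all loci. edgeR with the replicate number as a block called none of them, beside 0.0234% of all loci. Of the lists of other cell types, the chromaffin genes Chga, Dbh and Hand2 were called, at 0.87, 0.79 and 0.93 higher on the log2 scale in KO (edgeR adjusted p = 0.044, 0.046 and 0.046). Without KO 3 the values were 0.85, 0.81 and 0.94 and none of the 3 was called (edgeR adjusted p = 0.13, 0.12 and 0.13).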

How the data were processed

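RNA sequencing counts of 3 WT and 3 Armc5 KO adrenal gland samples were analysed. The build was GRCm38 and the tools named were StringTie, STAR, Trimmomatic, edgeR and Picard, per the submitters' processing notes. The counting program, its strand setting and the annotation were not given in the sources used here. As deposited by the authors, the table held raw counts per locus, which were analysed, and log2 values (log2 CPM, also scaled to Rn7sk), which were not used. Locus lengths are those deposited by the authors. Unnamed loci were left out of library totals.

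The members and all lists were chosen with earlier results of these data known, and the hepatocyte lists and rule are no independent support. Low counts may not be single reads, which was not tested: the value 3 was about as frequent as 1 and 2 together in each library (in WT 1, 1916 loci at 3, 946 at 1 and 1015 at 2), and the Clopper-Pearson intervals may then be too narrow. Loci were tested with edgeR 4.0.16 (filterByExpr by group, TMM, glmQLFit robust, glmQLFTest, two-sided), with the Benjamini-Hochberg method and an adjusted p under 0.05, in R 4.3.3. The fit was tried on simulated data in which no single library was raised, so that trial does not cover a library like KO 3. DESeq2 1.42.0 and limma 3.58.1 (voom with sample quality weights) were alternatives. The text names all members, up to 4 loci of each list with the highest mean CPM and any called, 15 loci outside lists with the highest CPM in KO 3 among those far above, Armc5, and the 10 loci most like Alb; list genes named beside these (Nr1i3, Clec4f, Clec4g, Fabp2, Marco, Umod, Slc12a1, Kap, Ins1, Ins2) were chosen after their values were seen. Promoter sequences are from RefSeq, the annotation of printed stretches from GENCODE M21. Some items are not reported here.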

Additional observations from a re-analysis of the deposited data

Results flagged for a closer look

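Unnamed loci, which entered no comparison, held 4 of 4298 loci with at least 30 counts in KO 3 (0.0931%) that were at least 10-fold above every other library there, and their levels in KO 3 were above those in the WT samples. At chr15:82635628-82640593, inside the locus of Gm49431, there were 926 counts in KO 3 and 0 to 9 elsewhere. At chr5:147313331-147314179, 805 bases from Urad, there were 199 against 0 to 19. At chr5:145435614-145435925, 384 bases from Cyp3a16, there were 88 against 0 to 6, and at chr8:89043000-89059165, inside the locus of Sall1, 59 against 0 in the other 5.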

How the results depend on the processing

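The 24 member loci far above in KO 3 became 21 to 25, and the 64 other hepatocyte loci 58 to 73, under a limit of 5 or 20, TMM-scaled sizes, single-gene loci and leaving out WT 1. The members' share of KO 3 counts, 0.556%, was 0.546% with unnamed loci in the total, 0.479% over single-gene loci, 0.311% without Alb and 0.644% without mitochondrial loci. No member was called in any of the 15 alternative fits that tested members, of which DESeq2 gave no p to 15 of 20 members. The 393 calls over all loci became 672 with total counts alone, which moved the median log2 fold change of all loci to 0.22, 2626 with DESeq2 and 1527 with limma-voom with quality weights. They ranged from 15 to 644 when 1 library was left out, and were 16 without WT 1 and KO 3 together and 177 without KO 3 and without a filter beyond 1 count, added after seeing the data. With the replicate number as a block, 5 loci and no member were called, and 17 of 20 members stayed above 0; the deviations of same-numbered samples correlated at -0.09, 0.01 and -0.14, and 1 of the 3 numbers matched best with itself, so the numbers were not taken to pair the samples. The log2 fold change changed sign without KO 3 for Alb (-2.03), Ahsg (-1.26) and Cps1 (-0.93); without a filter as well it was -2.03, -1.26, -0.92 and, for Cyp2e1, -0.0021. With 1 library left out in turn, Alb ranged from -2.03 to 10.80, Ahsg from -1.26 to 4.47 and Cps1 from -0.93 to 15.67 (fitted values that depend on the prior count where WT is at 0). Without WT 1 and KO 3 it was -1.31 for Ahsg and -0.27 for Cyp2e1, while that of Alb was 1.44 and that of Serpinc1 0.45, both above 0 as with all libraries. The cause was not tested. Members cannot be read where hepatocyte loci are left out, and with at least 10 CPM in 3 libraries 5 of them were tested. At 0 counts a library of this depth allows up to 3 counts, so a member listed at 0 may still be present below that.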

Other observations

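The loci outside the lists whose log2(CPM + 0.5) followed Alb most closely over the 6 libraries (Pearson r, a description over 6 points set largely by KO 3) were Cyp17a1 (0.98), Inmt, Dlst, Mug1, Agt, Bmp3, the Ube3a locus, the Cyp3a41 locus, a symbol turned into the date 01-Mar, and F5 (0.97). Of 15201 loci outside the lists with a mean of at least 1 CPM, 163 (1.07%) had r over 0.9. Of the 29 members, Alb itself among them, 24 did. The members were chosen from the KO 3 values that also set r, so nothing is read from this difference. Cyp17a1, the enzyme of androgen synthesis that the adult mouse adrenal cortex is known to lack, had 85, 10 and 0 counts in WT, 24 and 38 in KO 1 and KO 2, and 1192 in KO 3. Agt, angiotensinogen, had 709, 136 and 131 counts in WT, 143 and 149 in KO 1 and KO 2, and 3483 in KO 3. F5, a clotting factor, had 604, 401 and 61 counts in WT, 180 and 159 in KO 1 and KO 2, and 5953 in KO 3. Dlst, a subunit of a mitochondrial dehydrogenase, differed far less between libraries, with 6929 counts in KO 3 and 3615 to 6735 elsewhere.

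Among blood cell genes, the Lyz2 locus, a gene of myeloid cells, had 8791, 86560 and 36329 counts in WT, 5984 and 3303 in KO 1 and KO 2, and 5981 in KO 3.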
